A study of Danio rerio with 48 samples.

Results

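The pancreatic serine proteases are 7 genes of the zebrafish, taken by name from the 25377 genes of the deposited count table: the trypsins prss1, prss59.1 and prss59.2, the chymotrypsin ctrb1, and the elastases ela2, ela2l and ela3l. All 7 passed the filter on low counts that left 20021 genes for testing, and each was measured in all 48 libraries. Acinar cells of the exocrine pancreas make these enzymes as inactive precursors and secrete them into the gut. There trypsin is activated by enteropeptidase and in turn activates trypsinogen, chymotrypsinogen and the proelastases, which cut dietary protein after different residues. In the zebrafish larva the acinar cells differentiate and fill with such precursors in the days before feeding starts, and the exocrine pancreas lies behind the head, beside the gut and liver.

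Each library was polyA RNA from a pool of 15 heads, cut off in front of the swim bladder, from larvae of a mixed wild-type line, to which AB or Tupfel long fin fish or both are added yearly. Embryos were held 1 to a well in 0.88, 1.57 or 2.8 µM PFOS (perfluorooctane sulfonic acid, a fluorinated chemical that persists in the environment), or in vehicle, and all groups, controls too, carried 0.4% dimethyl sulfoxide (DMSO). Solutions were renewed daily until heads were taken at 4 or 5 days post fertilization (dpf), with 6 pools for each of the 4 concentrations at each age. Pools are named by the letter in their labels, and because no label ties a pool to a clutch, every test below measures the spread between these pools, which may be partly technical.

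Counts summed to 14475198 to 28926584 per library. A level is given as CPM, the count scaled to a library size adjusted by the trimmed mean of M values, or as log2 CPM with a prior count of 2. These levels are not divided by transcript length and are compared between groups, not between genes. Differences come from 1 quasi-likelihood fit of edgeR over all 48 libraries, with Benjamini-Hochberg adjustment over the 20021 genes. A gene was called at an adjusted p under 0.05. The edgeR test gives no standard error (SE). Each SE of a fold change was calculated back from the fold change and the test statistic, and each interval was built from that SE. An interval therefore carries the same information as the unadjusted p and is not separate support. As markers of the labelled tissue, all 19 listed brain, eye and other head genes were tested. Of 23 posterior Hox genes written, the 13 found in the table summed to 1 to 41 counts per library, and none passed the filter. Hepatocyte markers (22 of 24 tested) and intestine markers (24 of 29 tested) were also detected, at up to 10230 and 912 summed CPM in DMSO pools at 5 dpf. The low Hox counts therefore do not show that digestive tissue was left out of the heads. Since the pools are bulk tissue, fewer acinar cells in the larva, less pancreas left on the cut head and less RNA per acinar cell cannot be told apart. In 3 libraries the median correlation with others of the same age was under 0.95: 2.8 µM replicate A at 4 dpf (0.922), 1.57 µM replicate D at 5 dpf (0.941) and 0.88 µM replicate H at 5 dpf (0.915).

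The 7 genes lie on 4 chromosomes of the GRCz11 assembly, as the deposited table gives them. The trypsin gene prss1 lies on chromosome 16 from 25080764 to 25085328 on the minus strand. Further along the same chromosome, prss59.1 (26012569 to 26013852) and prss59.2 (26017360 to 26018695) lie 3507 bp apart on the plus strand with 0 genes of the table between them. The elastase genes ela2l (chromosome 8, 21366771 to 21372486, minus strand) and ela2 (21376290 to 21381735, plus strand) are likewise neighbours, 3803 bp apart with 0 genes between. The remaining pair lies elsewhere, ctrb1 on chromosome 7 from 35075847 to 35079300 on the plus strand and ela3l on chromosome 5 from 26111596 to 26118856 on the minus strand. An expected count is a fraction where reads were divided between features. For both prss59.1 and prss59.2 this was so in 39 of 48 libraries, whereas their sum was a fraction in 8 only, so the split between these copies is uncertain. The corresponding number was 19 for ctrb1, 5 for ela2l, 4 for prss1 and 0 for ela2 and ela3l (whole within 0.01).

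Protease transcripts were scarce in heads at 4 dpf. At 5 dpf their medians were higher, and they varied between pools of the same group by orders of magnitude. The median summed CPM of the 7 genes at 4 and 5 dpf was 2.81 and 466 in DMSO. It was 2.89 and 70.8 at 0.88 µM, 1.88 and 16.5 at 1.57 µM, and 1.99 and 371 at 2.8 µM. The lowest 5 dpf pools of DMSO (2.35) and 1.57 µM (1.78) were at 4 dpf levels. The summed counts of the 7 genes ranged from 17 to 471 per library at 4 dpf. At 5 dpf the sum ran from 55 to 99443 in DMSO, and the PFOS groups of 0.88, 1.57 and 2.8 µM ran from 192 to 9874, 43 to 1622 and 1461 to 20503. Set over the whole library, these transcripts were 0.438% of all counts in the highest DMSO pool, replicate B, and 0.000254% in the lowest, replicate E.

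**Figure D1:**
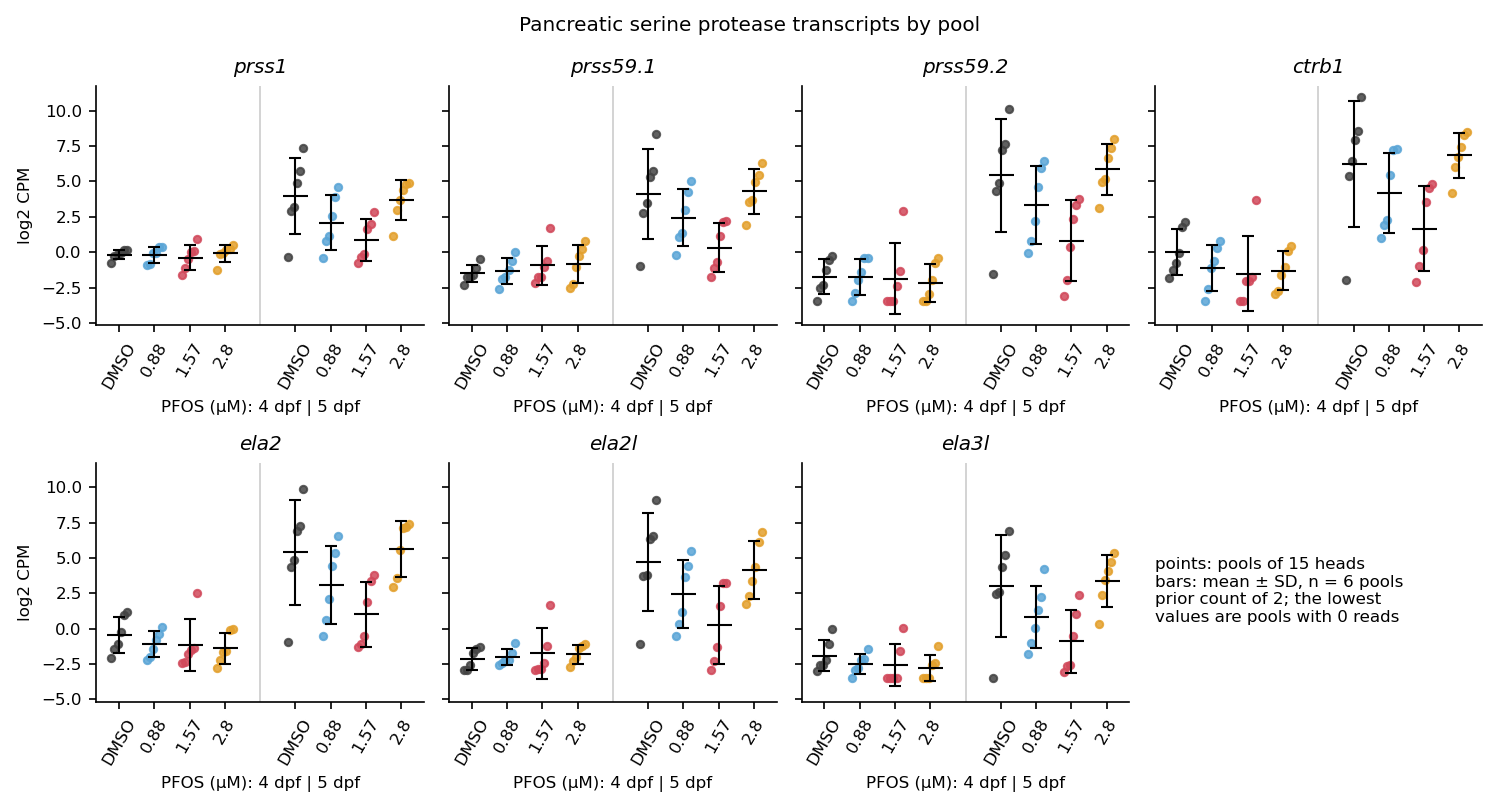
Log2 CPM of each gene (y axis, prior count of 2) in every pool, by PFOS concentration in µM (x axis), with 4 dpf left and 5 dpf right of the grey line. Points are pools, and bars are the mean ± SD of 6 pools. At 5 dpf the pools of 1 group spread widely, most of all in DMSO, and the 1.57 µM pools lie lowest on average, while 1 pool of the 1.57 µM group at 4 dpf stands above the other 5 for several genes.

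Trypsin cuts after lysine and arginine and is the enzyme that activates the other precursors. In DMSO at 5 dpf, prss1 had 0.683 CPM in the lowest pool, a median of 19.7 and 164 in the highest. It had 0.646, 3.91 and 24.5 CPM at 0.88 µM, 0.495, 1.91 and 7.13 at 1.57 µM, and 2.17, 16.9 and 30.1 at 2.8 µM, in the same order. The 4 ranges overlapped, and all 6 pools at 1.57 µM lay below the DMSO median. Pools below a median or below the lowest pool were not counted over all genes. Such counts, here and for the genes below, therefore only describe the 7, which vary together. At 4 dpf this gene had the lowest SD of log2 CPM of the 7 in every group, with 6 to 33 counts in each of the 24 pools and no pool at 0.

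The neighbours prss59.1 and prss59.2 also encode trypsins. For prss59.1 at 5 dpf the lowest, median and highest pool had 0.427, 25.6 and 331 CPM in DMSO, 0.793, 5.16 and 33.4 at 0.88 µM, 0.206, 1.29 and 4.44 at 1.57 µM, and 3.67, 21.9 and 80.5 at 2.8 µM. For prss59.2 the values were 0.256, 88.8 and 1106 CPM in DMSO, 0.851, 14.6 and 86.6 at 0.88 µM, 0.029, 3.10 and 13.6 at 1.57 µM, and 8.53, 68.6 and 253 at 2.8 µM. For both, every 1.57 µM pool was below the DMSO median, and 2 of 6 were below the lowest DMSO pool, replicate E. Where the 7 genes together had at least 100 counts, the ratio of prss59.1 to prss59.2 counts had a median of 0.361 over 21 pools at 5 dpf and ranged from 0.199 to 1.52. At 4 dpf, prss59.2 had 0 counts in 7 of 24 pools and prss59.1 in none.

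Chymotrypsin cuts after large hydrophobic and aromatic residues. Its gene ctrb1 spanned the widest range, from 0.171 CPM in the lowest DMSO pool at 5 dpf through a median of 166 to 2024 in the highest. At 0.88 µM it had 1.91, 24.7 and 159 CPM, at 1.57 µM 0.145, 6.23 and 28.5, and at 2.8 µM 18.4, 141 and 362. The median was lowest in the 1.57 µM group, next in the 0.88 µM group and nearest to DMSO in the 2.8 µM group, and the ranges of all 4 groups overlapped. Between DMSO pools the ratio of highest to lowest was 11850, against 83.3, 197 and 19.7 in the 3 PFOS groups.

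The remaining 3 genes encode elastases. The gene ela2 had 0.427, 75.8 and 964 CPM in the lowest, median and highest DMSO pool at 5 dpf, 0.617, 12.7 and 93.8 at 0.88 µM, 0.319, 2.08 and 13.7 at 1.57 µM, and 7.46, 94.0 and 168 at 2.8 µM. Its neighbour ela2l had 0.384, 46.5 and 547 CPM in DMSO, 0.617, 7.31 and 44.7 at 0.88 µM, 0.0413, 1.65 and 9.42 at 1.57 µM, and 3.33, 15.4 and 115 at 2.8 µM. For ela3l the DMSO pools held 0, 13.0 and 119 CPM, and those at 0.88 µM 0.206, 1.70 and 18.1, at 1.57 µM 0.029, 0.341 and 5.10, and at 2.8 µM 1.16, 13.9 and 41.5. In all 3 genes the 1.57 µM pools lay below the DMSO median and the groups overlapped. The pool without a single ela3l read was DMSO replicate E, which had 0 of its 21696943 counts there, or at most 3 counts at the limit that a count of 0 allows. For ela2 and ela3l the 2.8 µM median was above the DMSO median, and for the other 5 genes below it.

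At 5 dpf the pools of each group ranked much alike for the 7 genes. In DMSO at 5 dpf, replicate B was the highest pool and replicate E the lowest for 7 of 7 genes. At 0.88 µM, replicate I was lowest for 7 genes and replicate D highest for 6, and at 2.8 µM replicate G was lowest for 7 and replicate F highest for 5. At 1.57 µM, replicate E was highest for 4 and replicate I lowest for 4. There the summed protease CPM of replicates E and H (74.7 and 69.8), and of F and I (1.78 and 1.83), lay close together. At 4 dpf the most frequent highest or lowest pool held for 3 to 7 of the 7 genes, with 3 in DMSO (highest), at 0.88 µM (lowest) and at 2.8 µM (lowest). When the 24 pools at 5 dpf were ranked by each gene, most pools kept their place within 5 ranks, and the exceptions were 2.8 µM replicate E (ranks 4 to 15) and 0.88 µM replicate H (ranks 6 to 14). As a description, the correlation of log2 CPM between 2 of the genes over the 24 pools at 5 dpf ran from 0.938 (ela2l and ela3l) to 0.991 (prss59.2 and ctrb1), with a median of 0.968 over 21 pairs. At 4 dpf, where counts are few, it ran from 0.461 to 0.913 with a median of 0.69. The pools of an age share groups and depths, so these values carry no test.

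**Figure D2:**
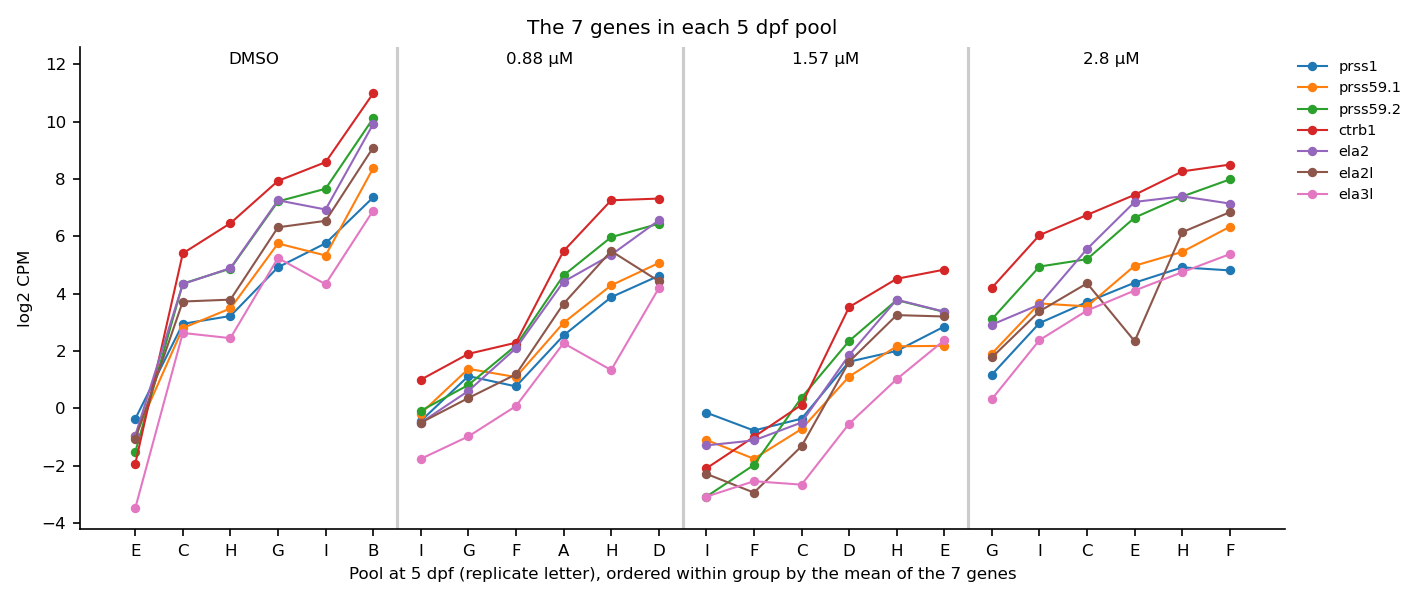
Log2 CPM (y axis) of the 7 genes, 1 line each, in the 24 pools at 5 dpf (x axis, replicate letters), ordered within each group by the mean of the 7 genes; levels are not corrected for transcript length. The lines run together, except that ela2l drops in 2.8 µM replicate E and ela3l in 0.88 µM replicate H.

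In both exceptions an elastase gene left the order of the others. In 2.8 µM replicate E, ela2l had 4.98 CPM beside 147 for ela2, a count ratio of 0.0339, while the next lowest ratio of the 21 pools was 0.23 and the median 0.586. In 0.88 µM replicate H, which is among the libraries of low correlation, ela3l had 2.43 CPM and ela2l 44.7, beside 40.7 for ela2. Its ratio of ela3l to ela2 counts was 0.0597, against a next lowest of 0.111 and a median of 0.193, and its ratio of ela2l to ela2 was the highest of the 21 pools at 1.1. These pools were picked out after their values were seen.

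The standard deviation of log2 CPM over 6 pools was larger at 5 than at 4 dpf. Its median over the 7 genes was 1.11 at 4 dpf and 3.59 at 5 dpf in DMSO. In the 0.88 µM group it was 0.914 and 2.42, in the 1.57 µM group 1.80 and 2.29, and in the 2.8 µM group 1.11 and 1.81. The ages are not on equal terms here, since the prior count of 2 narrows differences between the few counts at 4 dpf. Values at 0 counts there numbered 1 in DMSO and 3, 9 and 5 at 0.88, 1.57 and 2.8 µM. A single pool held much of a group's total: DMSO replicate B gave 72.8% of the summed protease CPM of its 6 pools, against 46.8%, 41.2% and 36.9% for the highest pool of the 0.88, 1.57 and 2.8 µM groups. Differences in spread between groups or ages were not tested.

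By edgeR, all 7 genes rose from 4 to 5 dpf in 3 of the 4 groups, and none passed in the 1.57 µM group. In DMSO the log2 fold changes ran from 5.75 ± 0.87 (SE) for prss1 (53.8-fold, edgeR adjusted p = 3.53e-06) to 9.71 ± 1.59 for prss59.2 (835-fold, adjusted p = 1.32e-05), with ctrb1 at 8.23 ± 1.54, ela2 at 7.91 ± 1.35, ela2l at 9.57 ± 1.47, ela3l at 7.01 ± 1.22 and prss59.1 at 8.00 ± 1.18. The highest adjusted p of the 7 was 0.000109. Ratios of the group medians were lower than these folds, at 23.5 for prss1 and 396 for prss59.2. Replicate B held 73.4% of the prss59.2 CPM of the DMSO pools at 5 dpf. With 1 pool left out, the log2 fold change ran from 4.64 to 6.01 for prss1 and from 8.07 to 10.20 for prss59.2. All 7 genes were called by edgeR in each of these leave-outs. For the DMSO groups, 5 of 6 pools at 5 dpf lay above every 4 dpf pool for 6 genes and 6 of 6 for ela2l, replicate E being the exception. Over all genes, 14.2% were called between ages in DMSO, 1869 higher and 969 lower. DESeq2 and voom also called 7 of the 7 in DMSO, and limma-trend called 5.

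At 0.88 µM the rise was 3.28 ± 0.82 for prss1, the lowest, to 6.59 ± 1.45 for prss59.2 on the log2 scale (edgeR adjusted p from 0.00144 to 0.00458), where 12.8% of all genes were called. Voom with sample quality weights called 0 of the 7 in that comparison and limma-trend on the deposited log2 values called 4. At 2.8 µM it was 4.20 ± 0.83 for prss1 to 8.83 ± 1.6 for prss59.2 (edgeR adjusted p from 8.56e-05 to 0.000319), with 12.4% of all genes called. DESeq2 and limma-trend also called 7 of the 7 at 2.8 µM, and voom called 5. There the ages did not overlap, since 6 of 6 pools at 5 dpf lay above every 4 dpf pool for all 7 genes. Overlap was not counted over all genes, here or in DMSO, so it only describes the 7. At 1.57 µM, where 15.2% of all genes were called, 0 of the 7 genes passed. Their log2 fold changes were 1.52 ± 1.05 (prss59.1) to 2.94 ± 1.38 (ela3l), with edgeR adjusted p from 0.113 to 0.352. Under an unadjusted p of 0.05 were 3 of the 7 and 5727 of the 20021 genes tested. DESeq2 and voom also called 0 of the 7 and limma-trend called 1, ctrb1. Without 1 pool, 1.57 µM replicate A at 4 dpf, edgeR called 4, and their log2 fold changes were then 5.84 for prss59.2, 6.66 for ctrb1, 4.60 for ela2 and 4.87 for ela2l. In the same setting prss59.1 was at 2.69 and ela3l at 4.58. Without 1.57 µM replicate E at 5 dpf, prss1 was at 1.13 and ela3l at 1.67. Whether the change with age differed between this group and DMSO is the interaction tested below, in which none of the 7 passed.

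That pool was the highest of its group for all 7 genes and held 471 of their counts, 82.7% of the group's summed CPM. Its ctrb1 level was 12.9 CPM, whereas the median of its group was 0.152. In the same pool the hepatocyte list (mean log2 CPM 4.69, other pools 1.68 to 3.74), the intestine list (0.737, others -0.546 to 0.221) and the other exocrine list (-0.666, others -2.92 to -2.45) were also highest of the 6, as were the islet list (4.06, others 3.41 to 3.93) and the head list (8.78, others 8.08 to 8.61). The list of protease activation and inhibition genes was highest there too (2.85, others 1.91 to 2.42). This pool was not highest for the acinar factors (2.539, others 2.196 to 2.543) or for secretin and cholecystokinin signalling (0.832, others 0.216 to 0.945). For swim bladder markers it was near the lowest (2.91, others 2.88 to 3.43). The part of these lists in the protease values was not tested.

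**Figure D3:**
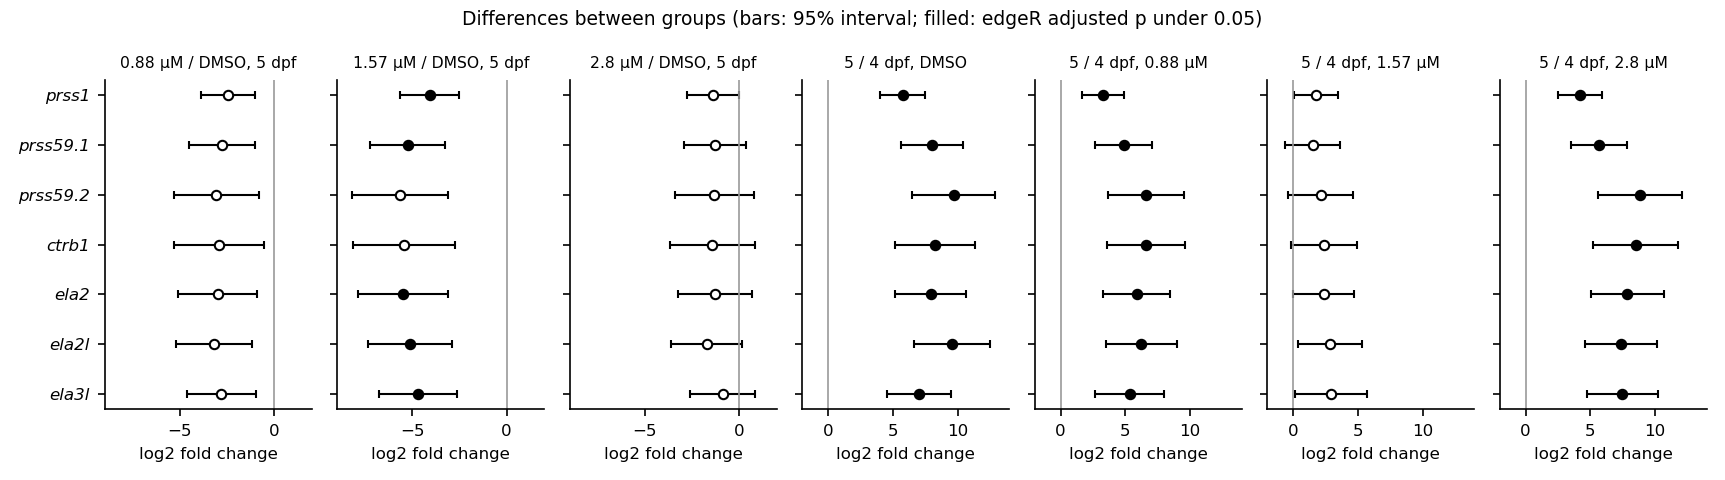
Log2 fold change (x axis) of each gene (y axis) with its 95% interval, calculated back from the edgeR test. The left 3 panels show PFOS against DMSO at 5 dpf, and the right 4 show 5 against 4 dpf within each group. Filled points have an adjusted p under 0.05, which are 5 of 7 for 1.57 µM against DMSO and 7 of 7 for age in every group but 1.57 µM, where they are 0 of 7.

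Against DMSO at 5 dpf, 5 of the 7 proteases fell in the 1.57 µM group, by 17.1 to 45.4-fold. The trypsin gene prss1 fell by 4.09 ± 0.79 (SE) on the log2 scale and prss59.1 by 5.26 ± 0.99, both with an edgeR adjusted p of 0.0109. Among the elastases, ela2 fell by 5.50 ± 1.18 (edgeR adjusted p = 0.0402), ela2l by 5.12 ± 1.11 (0.0461) and ela3l by 4.69 ± 1.03 (0.049). The copy prss59.2 had a log2 fold change of -5.66 ± 1.26 and ctrb1 one of -5.45 ± 1.34, and these did not pass (edgeR adjusted p = 0.0543 and 0.114). With the counts of prss59.1 and prss59.2 added together, a setting chosen after seeing the data, the pair was at -5.55 with an adjusted p of 0.0401. Over all genes 0.0799% were called, 16 genes, all lower.

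These calls rest on few pools. Without DMSO replicate B, edgeR called 0 of the 7, and the log2 fold changes were then -2.98 for prss1 to -4.02 for prss59.2. Leaving out replicate C, F or I of the 1.57 µM group, the 3 pools with the lowest summed protease CPM, also gave 0 calls. Without 1.57 µM replicate D the calls were 2, without DMSO replicate I 3, and without DMSO replicate E, whose summed protease level was 2.35 CPM beside 1.78 in the lowest 1.57 µM pool, 7. Over all genes, edgeR called 1 without DMSO replicate B, and 4 without each of replicates C, F and I of the 1.57 µM group. It called 10 without 1.57 µM replicate D, 13 without DMSO replicate I and 40 without DMSO replicate E. In all 12 leave-outs the 7 fold changes were below 0. A fit of only these 12 pools, limma-trend and voom each called 0, DESeq2 called 6, and 2 (prss1 and prss59.1) passed without the 3 libraries of low correlation.

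**Figure D4:**
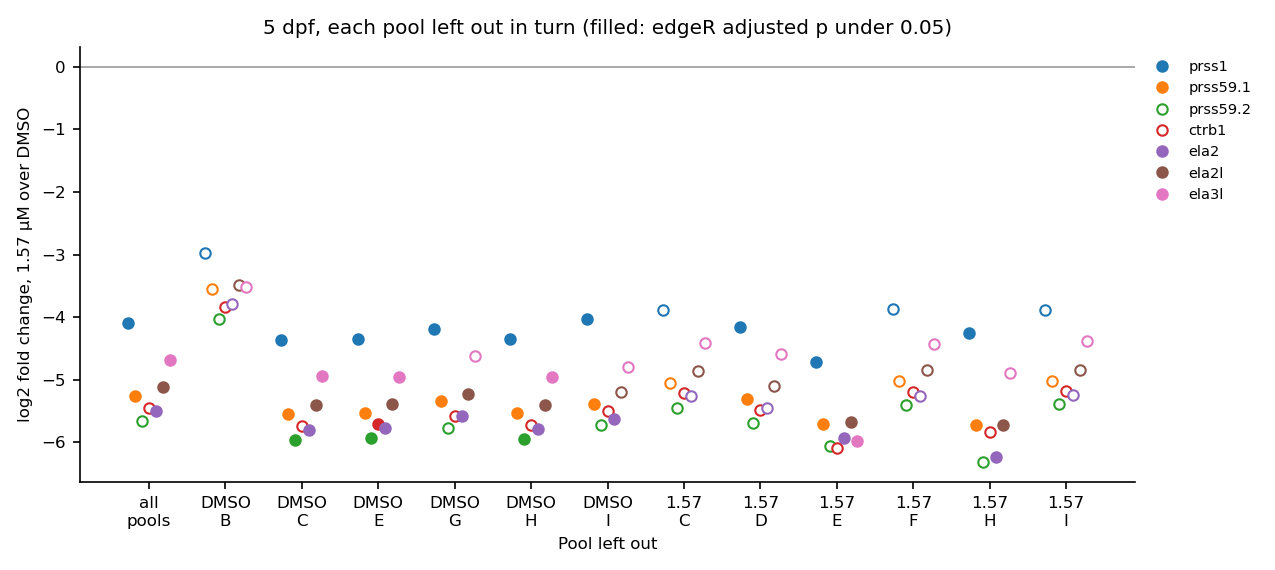
Log2 fold change of each gene at 1.57 µM over DMSO at 5 dpf (y axis) with all pools and with each pool left out in turn (x axis), filled where the edgeR adjusted p was under 0.05. All points lie below 0; without DMSO replicate B they move to between -4.02 and -2.98 and none is filled.

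At the other concentrations none of the 7 passed. At 0.88 µM and 5 dpf the log2 fold changes against DMSO were -2.45 ± 0.72 for prss1 to -3.21 ± 1.01 for ela2l, all with an edgeR adjusted p of 0.872, and 0% of all genes were called. All 7 were under an unadjusted p of 0.05, as were 1038 of the 20021 genes tested. Because the 7 genes vary together over the same pools, they are not 7 separate results. DESeq2, limma-trend and voom called 0 of the 7. Without DMSO replicate B the log2 fold changes were -1.62 (ela3l) to -1.04 (prss59.1), and without 0.88 µM replicate D ela3l was at -4.22. At 2.8 µM and 5 dpf they were -0.88 ± 0.85 for ela3l to -1.74 ± 0.95 for ela2l (edgeR adjusted p = 0.992, 0% of all genes called, none of the 7 under an unadjusted p of 0.05, 0 by the other 3 tools). The 95% interval for ctrb1 at 2.8 µM was -3.69 to 0.83, so both no change and a several-fold lower level lie within it. Without DMSO replicate B the 2.8 µM fold changes of prss59.1, prss59.2, ctrb1, ela2 and ela3l were above 0 (0.43, 0.30, 0.18, 0.41 and 0.28), and those of prss1 and ela2l were -0.27 and -0.11. The mean log2 CPM was also higher at 2.8 µM than in DMSO for the same 5 genes, as for ctrb1 with 6.87 ± 1.6 (SD, n = 6) against 6.24 ± 4.44.

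Across concentrations at 5 dpf, the order of the medians was DMSO, 2.8, 0.88 and 1.57 µM from high to low for prss1, prss59.1, prss59.2, ctrb1 and ela2l, with 2.8 µM first for ela2 and ela3l. Of neighbours in that order, DMSO and 2.8 µM did not differ beyond the spread between pools in the test above. The ranges of 2.8 and 0.88 µM overlapped for every gene, as did those of 0.88 and 1.57 µM, and these pairs were not tested. Set directly against 1.57 µM, the 2.8 µM pools were at log2 fold changes of 2.71 ± 0.75 for prss1 to 4.33 ± 1.19 for prss59.2. None passed (lowest edgeR adjusted p = 0.539 for prss59.1, 0% of all genes called). All 7, which vary together, were under an unadjusted p of 0.05, as were 249 of the 20021 genes tested. DESeq2, limma-trend and voom called 0 of the 7. A straight trend per µM at 5 dpf gave -0.60 ± 0.33 (ela2l) to -0.31 ± 0.30 (ela3l) with an edgeR adjusted p of 1.00 for all 7. There 0% of all genes were called, and DESeq2, limma-trend and voom called 0 of the 7. Under an unadjusted p of 0.05 were 1 of the 7 (prss1) and 374 of the 20021 genes tested.

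At 4 dpf the 7 genes had few counts. Over the 24 pools prss1 had 0.230 to 1.78 CPM with a median of 0.871, and ctrb1 0 to 12.9 with a median of 0.356. Against DMSO, log2 fold changes of the 7 genes were -1.28 to 0.38 at 0.88 µM, -0.62 to 1.91 at 1.57 µM and -1.70 to 1.09 at 2.8 µM, with both signs in each. No member passed in any of the 3 comparisons or in the trend at 4 dpf, in each of which 0% of all genes were called by edgeR, and no member was under an unadjusted p of 0.05. The lowest edgeR adjusted p in these 4 tests was 0.791 (ctrb1 at 2.8 µM), and DESeq2, limma-trend and voom called 0. Over the 24 pools the median was 1.5 to 19 counts per gene, and the 95% intervals were wide, as for prss1 at 2.8 µM (-1.61 to 1.94) and ctrb1 at 2.8 µM (-4.73 to 1.33).

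Whether the PFOS effect differed between ages was tested as an interaction. For 1.57 µM the difference (effect at 5 dpf minus effect at 4 dpf, log2) was -4.01 ± 1.18 for prss1, -6.48 ± 1.57 for prss59.1, -7.58 ± 1.92 for prss59.2, -5.82 ± 1.81 for ctrb1, -5.56 ± 1.69 for ela2, -6.74 ± 1.97 for ela2l and -4.07 ± 2.17 for ela3l. All 7 differences were below 0, but the lowest edgeR adjusted p was 0.742 and 0% of all genes were called. Under an unadjusted p of 0.05 were 6 of the 7, which ran together over the 5 dpf pools, and 980 of the 20021 genes tested. Without 1.57 µM replicate A at 4 dpf the difference was -3.89 for prss59.2, -1.60 for ctrb1, -3.34 for ela2 and -2.46 for ela3l, and 0 of the 7 were called by edgeR. With all pools DESeq2 called 2, prss59.1 and ela2l, and limma-trend and voom 0. For 0.88 µM (-3.33 to -1.65) and 2.8 µM (-2.37 to 0.44) the lowest adjusted p were 1.00 and 0.948, with 0% of all genes called in each, and the other 3 tools called 0. In these, 1 member (prss1 at 0.88 µM) was under an unadjusted p of 0.05, as were 495 of the 20021 genes tested at 0.88 µM.

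Other enzymes and secretory genes of the exocrine pancreas also fell in the 1.57 µM group. Of the 42 written on that list, 21 were in the table and 15 were tested. At 1.57 µM and 5 dpf, 10 of the 15 fell against DMSO, with a median log2 fold change of -5.32 and 15 of 15 below 0, while the median of all genes tested was 0.002. Those with the smallest p were the bile salt-dependent lipases cel.2 (-6.82 ± 1.09, edgeR adjusted p = 0.00219) and cel.1 (-5.35 ± 0.96, 0.00578) and the carboxypeptidases cpa1 (-5.72 ± 0.98) and cpa5 (-4.94 ± 0.86), both at 0.00492. Without DMSO replicate B, 1 of the 15 passed, and without replicate C, F or I of the 1.57 µM group, 4. A fit of only the groups compared, limma-trend and voom each called 0 of the 15, and DESeq2 called 8. In the 0.88 and 2.8 µM groups 15 of 15 were also below DMSO, with medians of -3.21 and -1.56, and 0 were called in either. The 3 comparisons share the DMSO pools. With the 5 proteases these 10 made up 15 of the 16 genes called. The remaining gene, named after its values were seen, was apoda.2 (-4.58, edgeR adjusted p = 0.0109), an apolipoprotein D gene. The members and the list were chosen with earlier results of these data known. Listed genes also varied with the proteases over the same 5 dpf pools (r of 0.655 for pdia2 to 0.993 for zgc:112160). The share of calls on the list is therefore a description and not separate support. With age, 15 of the 15 rose in DMSO, and 10, 1 and 14 of them rose in the PFOS groups from the lowest concentration to the highest. Of all 20021 genes tested, 1869 rose in DMSO and 1684, 1797 and 1422 in those groups.

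Genes that activate or restrain the proteases moved with age but passed in no PFOS comparison. From 4 to 5 dpf in DMSO, 1869 of all 20021 genes tested rose. Of 14 tested genes for activation, inhibition and trypsin receptors, 9 rose. Among them were tmprss15, which encodes enteropeptidase (4.31 ± 0.83 on the log2 scale, edgeR adjusted p = 0.000176), the alpha-1-antitrypsin genes serpina1l (3.38 ± 0.57, 2.51e-05) and serpina1 (3.05 ± 0.54, 4.99e-05), and the cathepsin gene ctsl.1 (1.88 ± 0.32, 3.13e-05). The serpin genes stand on the hepatocyte list too. At 1.57 µM and 5 dpf the same list had a median of -0.25 against DMSO with 13 of 14 below 0 and 0 called. Transcription factors and progenitor factors of the acinar lineage had a median of -0.004 there, with 6 of 12 below 0 and 0 called. From 4 to 5 dpf in DMSO, hnf1ba (2.21 ± 0.44, edgeR adjusted p = 0.000278), hnf4a (1.72 ± 0.34, 0.000284), and gata6 (2.13 ± 0.44, 0.000473) of that list rose, prox1a (-0.53 ± 0.14, 0.00609) fell, and 1 further gene rose. These factors act in other organs as well. Of 5 tested genes of secretin and cholecystokinin signalling, which governs enzyme release, 0 were called at 1.57 µM (median -0.05) and 2 rose with age in DMSO.

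Markers of other digestive organs lay lower than in DMSO in all 3 PFOS groups at 5 dpf, without passing the test. At 1.57 µM and 5 dpf, 21 of 22 hepatocyte markers lay below DMSO with a median of -0.74 and 22 of 24 intestine markers with a median of -1.11, and 0 of either list were called. The corresponding counts were 20 of 22 (median -0.52) and 22 of 24 (-0.81) in the 0.88 µM group, and 18 of 22 (-0.36) and 22 of 24 (-0.65) in the 2.8 µM group, against the same DMSO pools. At 4 dpf most lay above DMSO at 0.88 µM (21 of 22, median 0.80, and 22 of 24, 0.48) and at 1.57 µM (20 of 22, 0.34, and 20 of 24, 0.26). At 2.8 µM and 4 dpf, 8 of 22 and 12 of 24 lay above, and 0 were called at any concentration. The genes of a list were measured in the same pools, so these counts are not separate results. At 1.57 µM and 5 dpf, islet markers had a median of 0.15 with 3 of 11 below 0. Swim bladder markers had -0.12 with 3 of 6, and brain, eye and other head markers 0.13 with 4 of 19. Of 16 islet markers matched, 11 were tested, and neurod1 stands on the list of head markers too. In DMSO at 5 dpf, neurod1 and isl1 had medians of 119 and 72.0 CPM, and the islet list summed to a median of 388. Whether the islet and swim bladder lists follow the amount of those tissues in a head pool was not tested. Their medians and pool levels therefore do not show that it was unchanged. From 4 to 5 dpf in DMSO, 22 of 22 hepatocyte and 20 of 24 intestine markers rose, and of all 20021 genes tested 1869 rose and 969 fell. Among islet, swim bladder and head markers 0 of 11, 0 of 6 and 0 of 19 rose, and 2, 0 and 3 fell. Lists this short can hold 0 rising genes at the share over all genes. At 1.57 µM, where no protease passed, 20 of 22 hepatocyte and 16 of 24 intestine markers rose with age, as did 1797 of all genes tested.

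Among the DMSO pools at 5 dpf, marker levels differed too. Replicate E, lowest for every protease, was lowest also in the mean log2 CPM of the hepatocyte list (4.84, other pools 5.61 to 7.30), the intestine list (0.45, others 2.49 to 4.04) and the other exocrine list (-2.53, others 1.4 to 6.00). For islet markers it stood within its group (3.93, others 3.64 to 3.97), and for head markers highest (8.38, others 8.04 to 8.25). It was lowest too for the swim bladder list (2.85, others 2.87 to 3.22), the acinar factors (2.30, others 2.53 to 3.05), the secretin and cholecystokinin list (1.24, others 1.35 to 1.56) and the activation and inhibition list (2.80, others 3.35 to 4.26). Replicate B, highest for every protease, was highest for the intestine, other exocrine, swim bladder and activation and inhibition lists and not for the hepatocyte list, where replicate I was. By summed CPM, the hepatocyte list ranged from 1819 to 10230 in DMSO and from 2228 to 4224 at 1.57 µM, and the intestine list from 143 to 912 and from 143 to 383. Per pool of these groups, 0 to 1 of the 23 matched hepatocyte markers and 0 to 3 of the 27 intestine markers were at 0. How far the amount of digestive tissue in a pool enters the protease values was not tested.

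**Figure D5:**
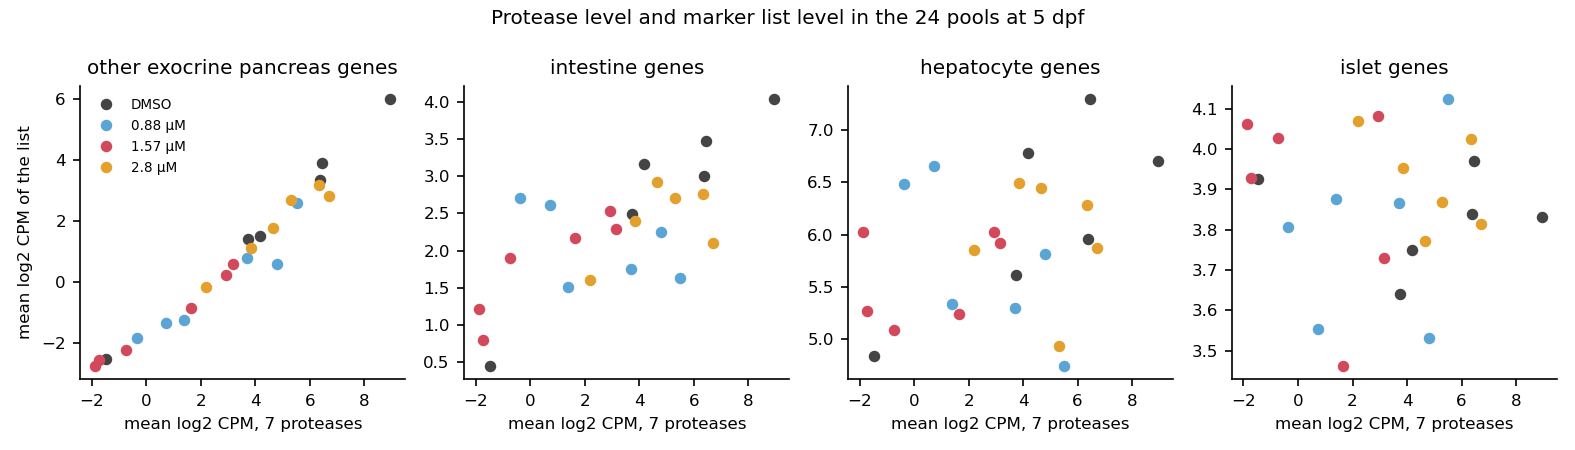
Mean log2 CPM of 4 marker lists (y axes) against the mean log2 CPM of the 7 proteases (x axes) in the 24 pools at 5 dpf, coloured by PFOS concentration. The other exocrine list lies close to a line with the proteases in all 4 groups, and the intestine list less closely. The hepatocyte and islet lists are more scattered, though in DMSO the hepatocyte list is lowest in replicate E, the pool lowest for the proteases. No correlation was computed for these panels.

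Over the 24 pools at 5 dpf, the genes most like the mean of the 7 proteases were sought among named genes with a mean log2 CPM of at least 1 over all 48 libraries. Highest was the carboxypeptidase gene cpa5, with a Pearson r of 0.965 given as a description. It was followed at a distance by tm4sf4 (0.81), the fatty acid translocase gene cd36 (0.793), myo15b (0.791), slc13a2 (0.782), chs1 (0.779), the chitinase gene chia.2 (0.769), aoc1 (0.768), zanl (0.766) and eps8l3a (0.667). The median r over all 20014 other tested genes was -0.044. Without the limit on level, 12 of these genes had an r above 0.9, and 10 of them were on the list of other exocrine genes.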

How the data were processed

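The authors deposited expected counts per gene for 48 libraries, not normalized, of which 81.2% were whole numbers within 0.01. They also deposited quantile-normalized log2 values of the same libraries. Reads were aligned with STAR 2.5.3a and processed in Partek 8.0.19.0428 on GRCz11, per the submitters' processing notes. A gene annotation was not given in the sources used here. Because a read can be divided between similar genes, values of neighbouring copies depend on that step. The libraries have no molecular identifiers.

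Expected counts were rounded and filtered by group, scaled by the trimmed mean of M values and fitted with edgeR 4.0.16 (R 4.3.3), with 8 groups and no covariate. Adjusted p-values are Benjamini-Hochberg over 20021 genes in each of 16 comparisons. Alternatives used DESeq2 1.42.0 and limma 3.58.1 (limma-trend, voom), other scaling and filters, a replicate block, a fit of only the groups compared, and each library left out in turn. The fit was also run on simulated counts, drawn with the spread typical of a gene's level and equal in all groups. The proteases spread more widely than that (median SE 1.11 against 0.25 for all genes, 1.57 µM against DMSO at 5 dpf). That run therefore does not test the fit for these genes. The members and gene lists were chosen with earlier results of these data known. From each list, up to 4 called genes with the smallest p were named. No sequences were used here. Depth ranged from 14475198 to 28926584 counts per library, and at 4 dpf few counts limit the precision. No source here ties a library to its sequencing pool, so within-pool values could not be given.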

Additional observations from a re-analysis of the deposited data

Results flagged for a closer look

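Within each group of 6 pools, a sample was picked out where its gap to the nearest pool, divided by the range of the group, was above the 95% critical value of Dixon for 6 samples. This held for 4 of 56 gene and group pairs, and chance gives about 5 percent. All 4 were replicate A of the 1.57 µM group at 4 dpf, which was highest. Its log2 CPM was 2.94 for prss59.2 where the other pools ran from -3.49 to -1.36, and 3.69 for ctrb1 with the others from -3.49 to -1.72. For ela2 it was 2.50 with the others from -2.42 to -1.35, and for ela2l 1.68 with the others from -2.92 to -1.2.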

How the results depend on the processing

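For 1.57 µM against DMSO at 5 dpf, 5 members were called. The count was 5 with size-factor scaling, with no filter or with the prss59 copies summed, and 6 with a stricter filter or DESeq2. It was 2 without the 3 libraries of low correlation, 0 in a fit of only the groups compared, 0 by limma-trend and 0 by voom, and 0 to 7 over the leave-outs. It was 0 with the replicate block, as was that of the other exocrine list (10 without the block). The labels do not say that letters pair pools, and in 0 of 11 comparisons did every same-letter pair correlate above 0.1 (range -0.606 to 0.532). For age in DMSO limma-trend called 5 and voom 7, and for age at 2.8 µM limma-trend called 7 and voom 5. For age at 0.88 µM limma-trend called 4 and voom 0. For age at 1.57 µM limma-trend called 1, and leave-outs gave 0 to 4. DESeq2 called 2 members in the age difference of the 1.57 µM effect. Of 160 counts under the alternatives, 151 were within 1.5 times the reported count, as were 245 of 252 in leave-outs. In most comparisons the reported count was 0, and 0 against 0 was taken as within. These totals therefore do not measure how stable the calls are, and those for 1.57 µM against DMSO moved as given above. The cause of the differences between settings was not tested. Apart from leave-outs named for 1.57 µM against DMSO, counts over all genes in these settings are not given here.

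For 2.8 µM against DMSO at 5 dpf, limma-trend gave log2 fold changes of the opposite sign for prss59.1 (0.23), prss59.2 (0.48), ctrb1 (0.76), ela2 (0.28) and ela3l (2.74), and voom for ela3l (0.006). Over the leave-outs prss59.1 ranged from -1.89 to 0.43, prss59.2 from -1.91 to 0.30, ctrb1 from -1.83 to 0.18, ela2 from -1.60 to 0.41 and ela3l from -1.40 to 0.28, above 0 only without DMSO replicate B. By limma-trend ela3l was at 0.037 for 0.88 µM against DMSO, and in the age difference of the 1.57 µM effect ctrb1 was at 1.73 and ela3l at 5.86. With a prior count of 0.5, mean log2 CPM of ela3l at 4 dpf moved by over 1 SD at 0.88 µM (to -3.39) and 2.8 µM (to -4.05).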
